A study of Serinus canaria and Ploceus bicolor and Uraeginthus cyanocephalus with 155 samples.

Results

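The brains of adult female canaries in the non-breeding season were compared between HVC, a nucleus of the song control system, and the entopallium, a visual area of the forebrain outside that system. The females had been kept under short-day light without any hormone treatment. They were recorded continuously, each alone in a sound-attenuated box, and were killed after this had shown that they did not sing. There were 6 arrays of HVC and 5 of the entopallium, each of a single bird, which are 11 of the 155 arrays of the series. These arrays were chosen by species, sex, season, singing and treatment as given in the sample descriptions, and not by their levels. Earlier results of these data were known when the comparison was chosen. The other arrays were of the cerebellum of canaries, including females of this same state, and of HVC and entopallium of other birds. Those birds were breeding singing male and breeding non-singing female canaries under long-day light, non-breeding non-singing males, and non-breeding females that sang spontaneously. Further groups were testosterone-implanted singing canaries of both sexes, and breeding, singing blue-capped cordon-bleus and forest weavers of both sexes. HVC and entopallium were dissected under a stereomicroscope from thin frozen sections. The methods of the paper do not describe how the cerebellum was taken. Total RNA was hybridised to a custom exon array with probes designed on the male zebra finch. Canary RNA was thus measured with the probes of another songbird. Tests of transcripts compared levels of the same transcript within a species only. Ranks among transcripts and levels in other species are descriptions.

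HVC is a premotor area of song production. Its projection neurons innervate the robust nucleus of the arcopallium, which drives the vocal motoneurons, and Area X, the striatal part of a loop needed for song learning and plasticity. HVC neurons express androgen and oestrogen receptors, and in canaries the nucleus changes with season and circulating testosterone. Female canaries have a smaller HVC than males and seldom sing, but sing after testosterone treatment. The entopallium is the telencephalic target of the tectofugal visual pathway, lies outside the song system and serves here as the non-vocal pallial reference.

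Each value is a log2 transcript level, so that a difference of 1 is 2-fold. There were 26061 transcripts, and array medians lay between 7.29 and 7.37. Medians of the HVC arrays averaged 0.0218 above those of the entopallium arrays, a difference within the spread between birds (exact permutation test, two-sided, p = 0.18). The low end of the arrays differed slightly. The 1st percentile of the levels was 2.76 ± 0.06 (SD, n = 6) in HVC and 2.84 ± 0.04 (SD, n = 5) in the entopallium, a difference of -0.0833 (exact permutation test, two-sided, p = 0.0173, where 0.00216 is the smallest value that 462 splits allow). Arrays correlated across transcripts between 0.989 and 0.994 within HVC, between 0.984 and 0.993 within the entopallium, and between 0.955 and 0.966 across regions. In a PCA of the 11 arrays, PC1 held 65.8% of the variance and separated all HVC arrays from all entopallium arrays. PC2 held 7.38% and set a single array apart, entopallium replicate 5, with a score of -34.6 against 4.19 to 10.8 for the other entopallium arrays. This array differed by at least 0.5 from the mean of the other entopallium arrays for 6.29% of transcripts, against 1.60% to 2.38% for the other 10 arrays measured in the same way. Results that moved by more than 1.5 times without it are given with and without it.

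Transcript levels differed widely between HVC and the entopallium. In HVC, 1893 transcripts were higher (7.26% of those tested) and 2169 were lower (8.32%), together 4062 transcripts or 15.6%. These were called in limma at an adjusted p under 0.05 and a log2 difference of at least 0.5. The numbers in both directions were similar, and so were the sizes, with a median of 0.75 for the transcripts that were higher in HVC and -0.74 for those that were lower. The median over all transcripts was 0.02, with quartiles of -0.18 and 0.19. Without entopallium replicate 5, 3797 of the 4062 transcripts were called again in the same direction.

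Most differences were modest, and a small group was large. Of the transcripts that were higher in HVC, 1356 differed by 0.5 to 1, 477 by 1 to 2 and 60 by 2 or more, and 7 of the last reached 3. Of those that were lower, the corresponding numbers were 1604, 490, 75 and 13. No transcript with a difference of 2 or more missed the call, and 69 with a difference of at least 0.5 did. A further 7638 transcripts passed the adjusted p but differed by less than 0.5, so that 11700 transcripts (44.9%) passed the adjusted p alone. Since the tissue is a mixture of cell types, fewer cells of a type and less RNA per cell cannot be told apart.

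**Figure D1:**
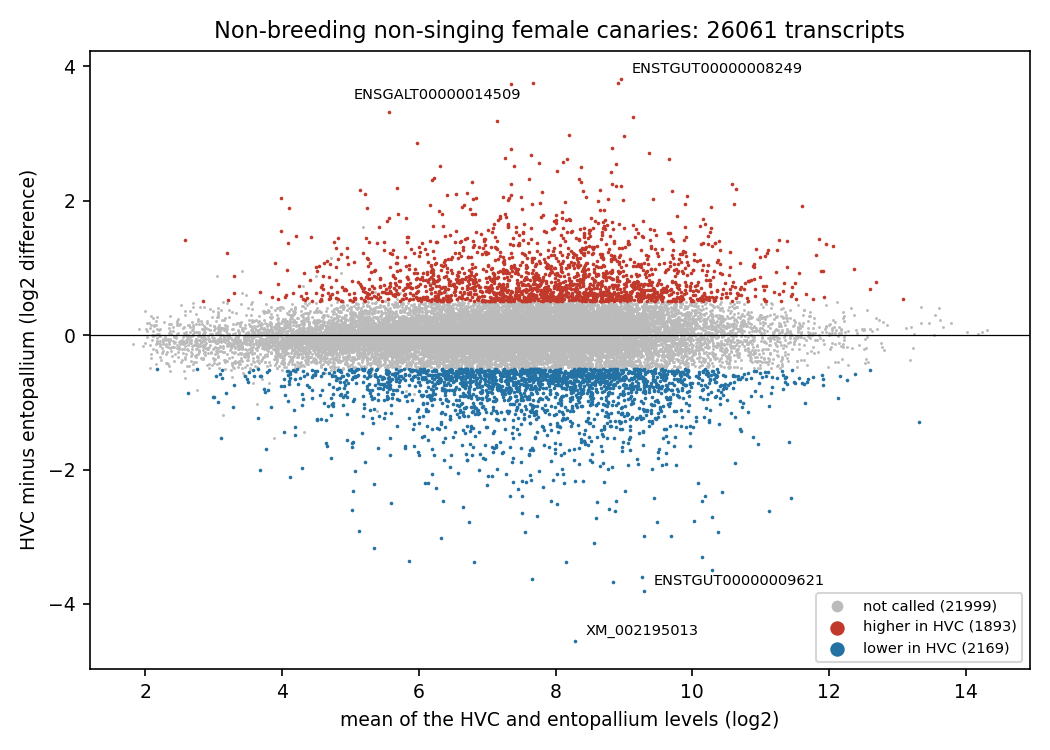
Difference between HVC and entopallium (log2, vertical axis) against the mean of the levels in both regions (log2, horizontal axis) for 26061 transcripts of non-breeding non-singing females. Red points are the 1893 transcripts that were higher in HVC and blue points the 2169 that were lower, which spread over nearly the whole range of levels, and the 4 named transcripts lie at the upper and lower extremes.

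The regions were also compared without a model, by whether the 6 HVC levels and the 5 entopallium levels overlapped. They did not overlap for 7750 transcripts (29.7%), with HVC above the entopallium for 3908 (15%) and below it for 3842 (14.7%). Of the called transcripts, 1731 of the 1893 that were higher in HVC (91.4%) and 1971 of the 2169 that were lower (90.9%) were in this set; for the others, at least a single HVC level reached into the range of the entopallium.

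Called transcripts were found at all levels. When transcripts were ranked by mean level and cut into 4 equal bins, 9.02% were called in the dimmest bin (levels up to 6.10), 14.3% and 15.9% in the middle bins and 23.2% in the brightest (levels from 8.40). The median standard error was 0.0868 in the dimmest bin and 0.0730 in the brightest. Transcripts that were higher in HVC had a median level of 8.40 in HVC and 7.52 in the entopallium, and those that were lower had 7.35 and 8.25. Some called transcripts lay near the bottom of the scale in the lower region. The entopallium mean was below the 5th percentile of the arrays (4.17) for 41 of the 1893 that were higher in HVC (2.17%). The HVC mean was below it for 86 of the 2169 that were lower (3.96%). At the other end, 254 of the former in HVC (13.4%) and 264 of the latter in the entopallium (12.2%) exceeded the 95th percentile (10.0). By definition, about 5% of all levels lie beyond each of these cuts.

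The array combines transcripts from several public sources, which can be told by the prefix of the identifier. Of 11936 transcripts with the prefix ENSTGUT, 16.6% were called, near the 15.6% of all transcripts, with 968 higher and 1009 lower in HVC. Of 10482 RefSeq predicted messenger RNAs (XM_), 12.6% were called, and of 895 predicted non-coding RNAs (XR_), 11.5%. The share was 29.2% among 171 curated RefSeq messenger RNAs (NM_) and 26.4% among 1683 transcripts with any of 12 other Ensembl prefixes. Among 892 transcripts with the prefix AK, 60 were higher (6.73%, against 7.26% of all transcripts) and 110 lower in HVC (12.3%, against 8.32%). These shares are descriptions, as the classes also differed in level, with medians from 7.08 (XM_) to 8.08 (AK).

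The 2 transcripts most enriched in HVC were ENSTGUT00000008249 and ENSGALT00000014509. For ENSTGUT00000008249, the HVC levels were 10.63, 10.73, 10.77, 10.95, 10.96 and 11.11, and the entopallium levels were 6.77, 6.83, 7.12, 7.24 and 7.29. The lowest HVC level was thus more than 3 log2 units above the highest entopallium level. The mean was 10.86 ± 0.18 (SD, n = 6) in HVC, at the 98.1th percentile of all transcripts, and 7.05 ± 0.24 (SD, n = 5) in the entopallium, at the 43.6th. The difference was 3.81 (SE 0.11, limma adjusted p = 1.11e-10), or 14-fold.

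ENSGALT00000014509 had HVC levels of 9.28, 9.33, 9.604, 9.63, 9.66 and 9.82, and entopallium levels of 5.67, 5.69, 5.76, 5.83 and 6.04. Again no HVC array came near the entopallium arrays. The means were 9.55 ± 0.21 (SD, n = 6) and 5.80 ± 0.15 (SD, n = 5), with a difference of 3.76 (SE 0.10, limma adjusted p = 6.42e-11), or 13.5-fold. The entopallium level was in the lower part of the scale, at the 20.6th percentile of transcripts.

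The 2 transcripts most depleted in HVC were XM_002195013 and ENSTGUT00000009621. XM_002195013 had HVC levels of 5.39, 5.95, 6.05, 6.10, 6.10 and 6.47, and entopallium levels of 10.39, 10.42, 10.62, 10.67 and 10.70. One HVC array, replicate 1, was below the other HVC arrays, and all were about 4 log2 units or more below the entopallium. The means were 6.01 ± 0.35 (SD, n = 6) and 10.56 ± 0.15 (SD, n = 5), and the level in HVC was lower, with a difference of -4.55 (SE 0.15, limma adjusted p = 2.10e-10), or 23.4-fold.

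ENSTGUT00000009621 had HVC levels of 7.19, 7.29, 7.37, 7.47, 7.489 and 7.496, and entopallium levels of 11.06, 11.20, 11.21, 11.22 and 11.27. Among the 4 named transcripts it had the smallest SD in both regions, with means of 7.38 ± 0.13 (SD, n = 6) and 11.19 ± 0.08 (SD, n = 5). The difference was -3.81 (SE 0.07, limma adjusted p = 2.13e-12), 14-fold lower in HVC. Its HVC level was close to the median transcript, whereas its entopallium level was at the 98.7th percentile.

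**Figure D2:**
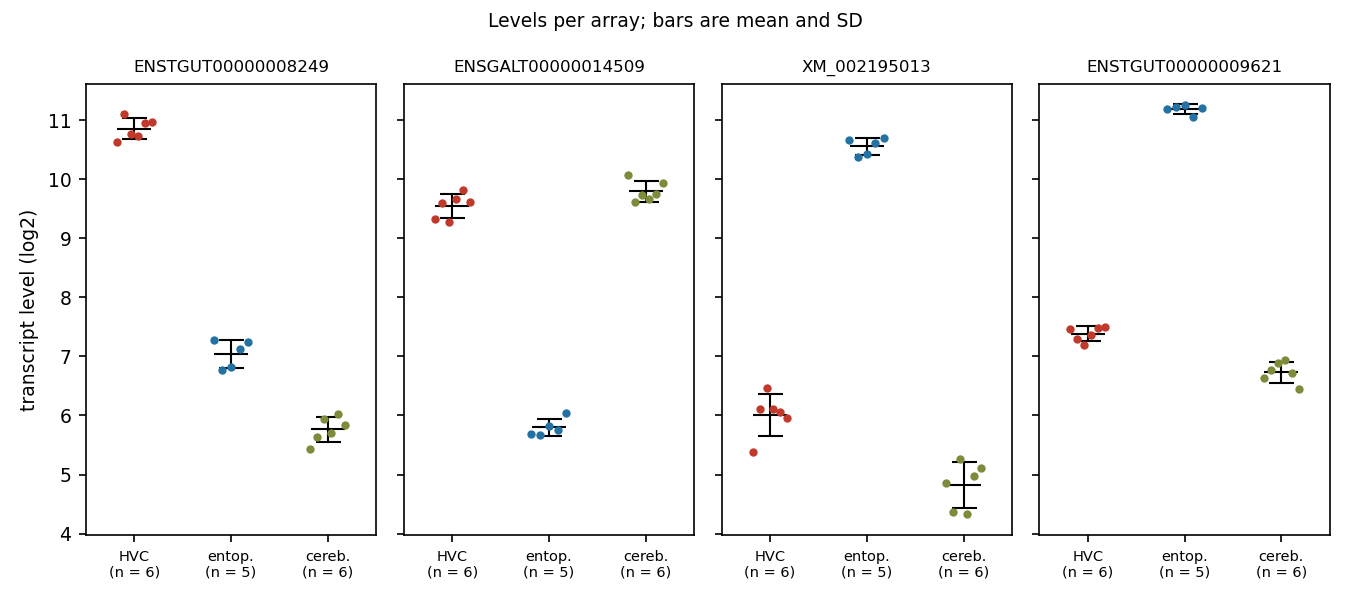
Level (log2, vertical axis) of the 2 transcripts most enriched and the 2 most depleted in HVC of these females, with a point for each array of HVC, entopallium and cerebellum and bars for mean and SD. In HVC and entopallium the points do not overlap for any of them, and in the cerebellum ENSGALT00000014509 lies at the HVC level whereas the others lie below both regions.

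In the descriptions, 5 bird numbers occurred in both regions, and whether equal numbers denote the same bird is not stated. The main fits and the permutation tests did not pair arrays by this number. Fits with it as a block are given with the alternatives. Taking the difference between the HVC and the entopallium array of each number, 1838 of the 1893 transcripts that were higher in HVC were higher in all 5 (97.1%), and 2094 of the 2169 that were lower were lower in all 5 (96.5%). A difference of at least 0.5 was present for all 5 numbers for 945 and 1042 transcripts. The calls used these arrays, so the counts describe how even the differences were. The difference profiles of the numbers correlated between 0.684 and 0.792 across transcripts. For single numbers, 17.2% to 24.9% of all transcripts differed by at least 0.5. ENSTGUT00000008249 differed by 3.34 to 4.01 between numbers, ENSGALT00000014509 by 3.59 to 4.06, XM_002195013 by -5.28 to -3.91 and ENSTGUT00000009621 by -4.03 to -3.57.

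Cerebellum arrays of 6 non-breeding non-singing females gave a further reference outside the pallium. ENSGALT00000014509 was 9.79 ± 0.17 (SD, n = 6) in the cerebellum, near its HVC level and far above its entopallium level. ENSTGUT00000008249 was 5.76 ± 0.21 (SD, n = 6) in the cerebellum, lower than in both pallial regions. XM_002195013 and ENSTGUT00000009621 were 4.82 ± 0.39 and 6.73 ± 0.18 (SD, n = 6) there, below HVC as well as the entopallium. Of the 1893 transcripts that were higher in HVC, the cerebellum mean was closer to the entopallium for 1286 (67.9%), and of the 2169 that were lower it was closer to HVC for 1444 (66.6%). Over all transcripts the cerebellum was closer to the entopallium for 50.7%. HVC exceeded the cerebellum by at least 0.5 for 1167 of the 1893 (61.6%, against 16.4% of all transcripts). HVC was below the cerebellum by as much for 624 of the 2169 (28.8%, against 14.2%). The lists were chosen by the difference between their HVC and entopallium levels, so these shares are no test.

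Whether the region difference was particular to these females was examined in the other groups of birds, each with 6 arrays of both regions. All 4 named transcripts were called in the same direction in all 11 groups of the 3 species, without overlap between regions. Their sizes varied. ENSTGUT00000008249 differed by 2.80 to 4.22 in the canary groups and by 3.58 and 4.10 in forest weavers, but by only 0.88 and 0.98 in female and male cordon-bleus, whose entopallium levels were 9.84 and 9.88. ENSGALT00000014509 differed by 3.76 to 4.55 in all 11 groups, and the non-breeding non-singing females had the smallest value. XM_002195013 differed by -2.37 and -2.08 in forest weavers, whose HVC levels were 8.73 and 8.97. The paper was wary of cross-species bias in hybridisation, and the part of such bias in the levels of these other species was not tested. ENSTGUT00000009621 differed by -1.73 in testosterone-implanted males and -2.17 in testosterone-implanted females, the smallest values of the 11 groups.

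**Figure D3:**
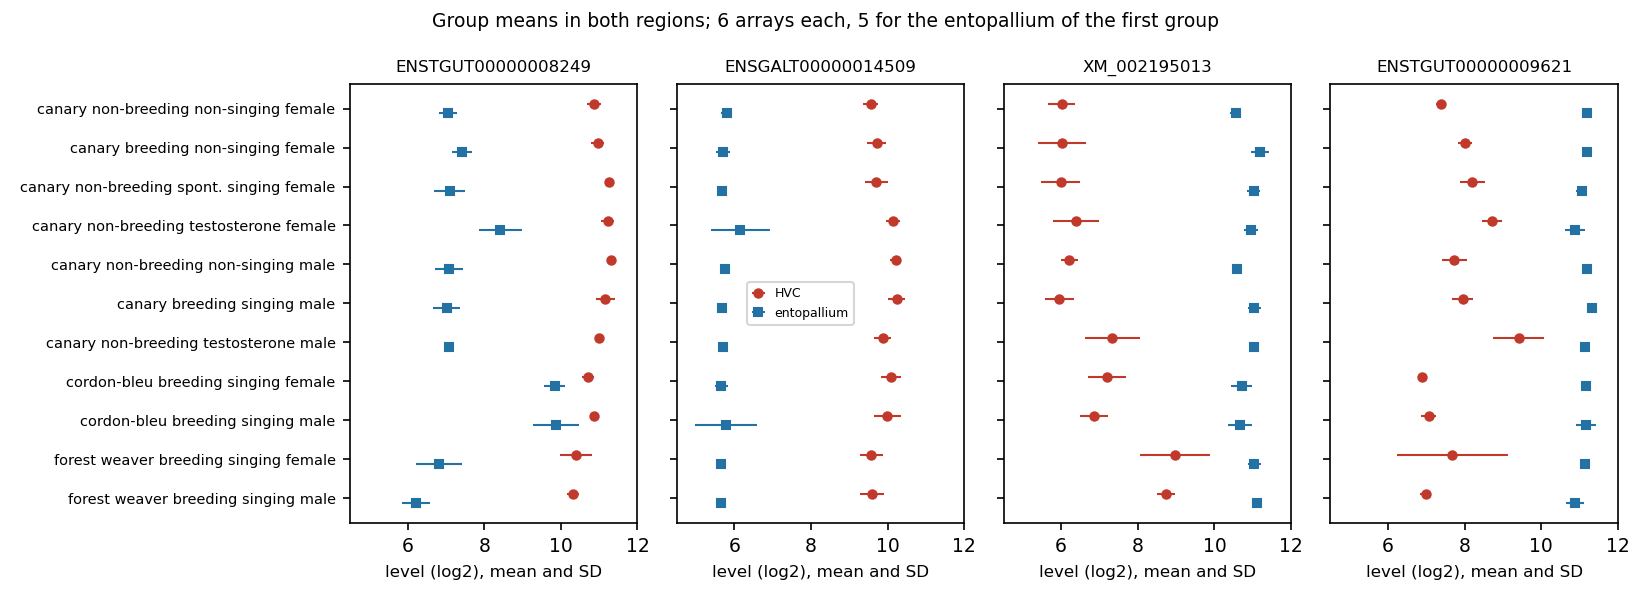
Level (log2, horizontal axis, mean and SD) of the 4 named transcripts in HVC (red circles) and entopallium (blue squares) of 11 groups of birds, with non-breeding non-singing female canaries in the top row. The order of the regions is the same in every group, and the regions are closest for ENSTGUT00000008249 in the cordon-bleus, where they differ by 0.88 and 0.98.

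Many of the called transcripts were also called in other groups. Of the 1893 transcripts that were higher in HVC, 1282 (67.7%) were also called in non-singing females in breeding condition, 1307 (69.0%) in males that were neither breeding nor singing, and 1237 (65.3%) in testosterone-implanted females. These are 77.1%, 80.5% and 61.1% of the transcripts called in that direction in those groups, where they made up 6.38%, 6.23% and 7.77% of all transcripts. Of the 2169 that were lower, 1299 (59.9%), 1359 (62.7%) and 1239 (57.1%) were shared, which are 77.9%, 78.3% and 58.9% of the calls in those groups (6.4%, 6.66% and 8.07% of all transcripts). In the cordon-bleus and forest weavers the shares of the lists of the non-breeding females were between 37.02% and 58.7%. The shared transcripts were 46.8% to 58.4% of those called in the same direction in those groups. Such calls numbered 1418 to 2315 of all 26061 transcripts in each group and direction. No test compared the shares in these species with the shares in canaries. Calls in the opposite direction numbered 0 to 16 in each list and canary group, and 20 to 44 in the other species. The transcripts that were higher in HVC had medians of 0.64 to 0.70 in the other 6 canary groups, and those that were lower had medians of -0.63 to -0.56. The medians over all transcripts lay between -0.04 and 0.04 in these groups. In the non-breeding non-singing females, whose arrays chose the lists, the medians were 0.75 and -0.74.

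A common set was called in all 7 canary groups, and a smaller one in all 11 groups of the 3 species. Of the 1893 transcripts that were higher in HVC (7.26% of all 26061), these sets held 813 and 512. Of the 2169 that were lower (8.32%), they held 667 and 356. Conversely, 196 of the 1893 and 233 of the 2169 were called in the non-breeding non-singing females and in no other canary group. The numbers to be expected by chance were not computed. A call missed in another group does not show that the difference was smaller there. The difference between groups was therefore tested directly as an interaction of region and group, with the same thresholds, against the groups that differed from these females in season, sex, or testosterone and singing. The interaction is the region difference in the non-breeding non-singing females minus that in the other group. The 3 tests share the 11 arrays of the non-breeding non-singing females, so they are not independent of each other. Transcripts named for the region difference were chosen by its size in these same arrays, which favours a smaller difference in any other group.

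Against breeding non-singing females, which had been kept in pairs under long-day light, the region difference changed for 711 transcripts (2.73%). Season, light and housing went together and cannot be told apart. The region difference was more positive in the non-breeding females for 297 (1.14%) and more negative for 414 (1.59%), with a median absolute size of 0.61. With arrays brought to equal total intensity, the split was 233 and 504. With the adjusted p as the only criterion, 3441 transcripts (13.2%) passed. Over all transcripts the region difference had an SD of 0.444 in the non-breeding and 0.414 in the breeding females. For 474 of the 711 it was wider in the non-breeding females. The seasonal difference was larger in the entopallium than in HVC for 428 of them and larger in HVC for 283 (39.8%). Shares over all transcripts were not computed for these counts, which describe the called transcripts only. When the regions were tested one at a time between the seasons, 707 transcripts (2.71%) differed in HVC and 886 (3.4%) in the entopallium. Without entopallium replicate 5 the count for the entopallium was 1140, and the interaction was called for 957 transcripts.

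The called transcripts with the largest seasonal interactions had low levels, but called interactions as a whole were not mainly dim. Of the 6516 dimmest transcripts, 1.84% had a called seasonal interaction, against 3.02% of the others. For sex the shares were 0.675% and 1.14%, and for testosterone 4.86% and 7.35%. XM_002199392 in the non-breeding females ranged from 5.41 to 6.52 with a median of 6.21 in HVC, and was 3.73, 4.79, 5.05, 5.13 and 5.60 in the entopallium. In breeding females it ranged from 3.56 to 4.85 in HVC and from 4.24 to 5.76 in the entopallium. Its HVC levels in the 2 seasons did not overlap, and the entopallium levels did. The region difference was 1.26 in non-breeding and -0.69 in breeding females, an interaction of 1.95 (SE 0.45, limma adjusted p = 0.00786). ENSTGUT00000017564 had an interaction of 1.82 (SE 0.49, limma adjusted p = 0.0188), and its region difference in the non-breeding females alone, 0.73, was not called (limma adjusted p = 0.0772).

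ENSTGUT00000015454 was the reverse. In the non-breeding females it was 5.70, 5.81, 5.84, 5.87 and 5.87 in the entopallium, above all HVC levels of 4.08 to 5.52. In breeding females HVC ranged from 4.71 to 6.07 and the entopallium from 3.87 to 5.53. The region difference was -0.93 in non-breeding and 0.90 in breeding females, an interaction of -1.83 (SE 0.39, limma adjusted p = 0.00464). For ENSTGUT00000009343 the interaction was -1.60 (SE 0.42, limma adjusted p = 0.0172). Of the transcripts named for the region difference, ENSTGUT00000009621 differed between the seasonal groups, with an interaction of -0.62 (SE 0.11, limma adjusted p = 0.00109). Its HVC level was 7.38 in non-breeding and 8.004 in breeding females, and its entopallium level was 11.19 in both. In a single limma model over all canary groups this interaction was not called (adjusted p = 0.0544). The other 3 were not called, with adjusted p between 0.18 and 0.3.

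Against non-breeding non-singing males, kept and recorded like the females, the region difference changed for 267 transcripts (1.02%). It was more positive in females for 106 (0.407%) and more negative for 161 (0.618%). Over all transcripts it had an SD of 0.444 in the females and 0.412 in the males, and for 167 of the 267 it was wider in the females. Here the difference between the sexes was larger in HVC for 197 of the 267 (73.8%) and larger in the entopallium for 70. Shares over all transcripts were not computed for these counts either. Tested one at a time, the sexes differed for 441 transcripts (1.69%) in HVC, of which 72 were higher and 369 lower in females, and for 144 (0.553%) in the entopallium. The part of probes designed on male birds, or of the Z chromosome that males carry in an additional copy, was not tested. The count for the entopallium was 197 without entopallium replicate 5. The count of interactions moved with the arrays used, and most with entopallium replicate 5. Without that array it was 413, and without entopallium replicate 1 it was 193. With weights for array quality it was 414. With the adjusted p as the only criterion it was 1419 (5.44%).

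Among the called transcripts, ENSTGUT00000011554 and ENSTGUT00000008874 had the most positive interactions with sex. ENSTGUT00000011554 in females ranged from 7.34 to 8.35 with a median of 8.10 in HVC, and was 7.05, 7.10, 7.18, 7.37 and 8.31 in the entopallium. The highest entopallium level was that of replicate 5. In males the order was reversed without overlap, with 6.72 to 7.48 in HVC and 7.74 to 8.41 in the entopallium. The interaction was 1.53 (SE 0.29, limma adjusted p = 0.00397), and 1.76 without entopallium replicate 5 (adjusted p = 0.000327). ENSTGUT00000008874 was alike, with 7.14 to 8.30 in HVC and 7.22, 7.40, 7.43, 7.58 and 8.44 in the entopallium of females, and 6.61 to 7.57 and 7.999 to 8.55 in males. Its interaction was 1.40 (SE 0.29, limma adjusted p = 0.00819), and 1.61 without entopallium replicate 5 (adjusted p = 0.00107). In females alone neither region difference was called, with limma adjusted p of 0.0649 and 0.359.

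The most negative called interactions with sex were in very dim transcripts, with levels overlapping between the regions in females. For ENSTGUT00000016916 the interaction was -2.12 (SE 0.60, limma adjusted p = 0.0401) and for XM_002198361 it was -1.90 (SE 0.56, limma adjusted p = 0.0472). Both were close to the threshold. ENSTGUT00000016916 lost it without HVC replicate 1, 2, 4 or 5 or entopallium replicate 1 or 4, with adjusted p of 0.0528 to 0.0701. XM_002198361 lost it without HVC replicate 2, 4, 5 or 6 or entopallium replicate 1, 2 or 4, with adjusted p of 0.0504 to 0.1. In a single limma model over all canary groups neither was called (adjusted p = 0.171 and 0.119). Among the transcripts named for the region difference, ENSGALT00000014509 was called, with an interaction of -0.70 (SE 0.13, limma adjusted p = 0.00386). Its HVC level was 9.55 in females and 10.21 in males, and its entopallium level 5.80 and 5.75. The call was lost in the model over all canary groups (adjusted p = 0.0585). The remaining 3 were not called, with adjusted p from 0.204 to 0.629.

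Against non-breeding females that had been implanted with testosterone and sang, the region difference changed for 1753 transcripts (6.73%). It was more positive in the untreated females for 747 (2.87%) and more negative for 1006 (3.86%), with a median absolute size of 0.64. With arrays brought to equal total intensity, the split was 627 and 1142. Testosterone, the surgery of the implantation and singing went together in the implanted birds and cannot be told apart. The larger part of the interaction was in the entopallium for 1398 of the 1753 transcripts and in HVC for 355 (20.3%). The corresponding share over all transcripts was not computed, so these counts describe the called transcripts only. Tested one at a time, the groups differed for 1539 transcripts (5.91%) in the entopallium, of which 766 were higher and 773 lower in the untreated females, but for 299 (1.15%) in HVC. Such counts, like those for season and sex, also depend on the spread in each region. In the untreated females the median SD of a transcript was 0.111 in HVC and 0.133 in the entopallium. The spread in the implanted females was not compared. For testosterone in female HVC the paper reported far more genes by a probe-level test that was not run here, so its count is of an unlike method. Without entopallium replicate 5 the count for the entopallium was 1631, and that of the interaction 1783. The region difference was wider in the untreated females for 900 of the 1753 and narrower for 853. For 31 it was at least 0.5 in opposite directions in the 2 groups. Shares over all transcripts were not computed for these counts. With the adjusted p as the only criterion, 6728 interactions (25.8%) passed.

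**Figure D4:**
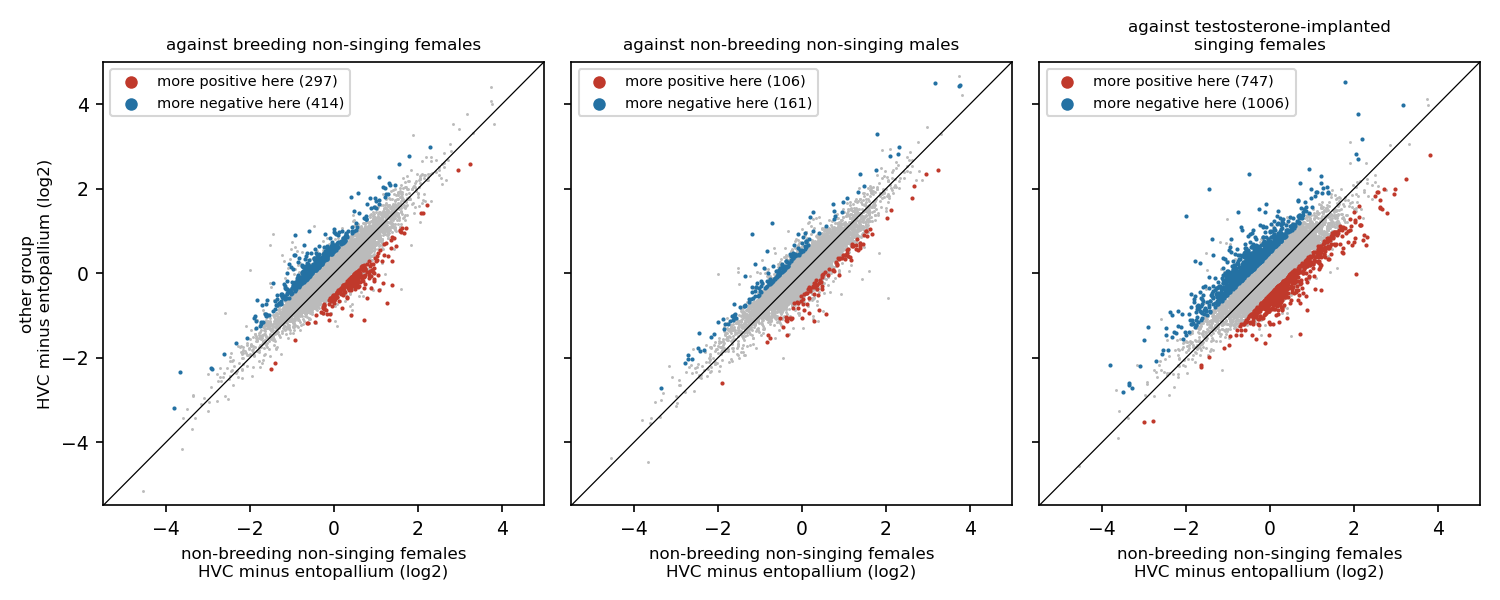
HVC minus entopallium (log2) in non-breeding non-singing females (horizontal axes) against the same difference in females in breeding condition, in males out of it and in testosterone-implanted singing females (vertical axes), with a point for each transcript and the line of equal values. Coloured points passed the test of the interaction, 711, 267 and 1753 from left to right, red where the difference was more positive in the non-breeding non-singing females and blue where it was more negative.

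XM_002194733 and XM_002200173 had the most negative interactions among the called transcripts, and both were very dim. Their means in HVC of the untreated females were 3.60 and 2.67. In the entopallium of the implanted females they were 2.80 and 2.95. These means lie below the 5th percentile of the arrays of the untreated females (4.17). XM_002200173 in the untreated females was between 1.76 and 3.83 in HVC, with a median of 2.71, and was 4.03, 4.29, 4.33, 5.18 and 5.57 in the entopallium, without overlap. In the implanted females it was between 1.97 and 5.84 in HVC and between 2.20 and 3.56 in the entopallium. The entopallium levels of the 2 groups did not overlap. The region difference was -2.01 in untreated and 1.36 in implanted females, an interaction of -3.37 (SE 0.69, limma adjusted p = 0.00135). XM_002194733 had an interaction of -3.46 (SE 0.88, limma adjusted p = 0.00687), with entopallium levels of 2.30, 5.28, 5.49, 5.95 and 6.23 in the untreated females and 1.72 to 3.995 in the implanted ones. Its HVC levels in the untreated females spread from 2.10 to 5.39, and its region difference there was not called (limma adjusted p = 0.143).

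The most positive called interactions were those of ENSTGUT00000017564 and XM_002196113. Their entopallium means in the untreated females, 3.94 and 2.97, were also below the 5th percentile of the arrays (4.17). ENSTGUT00000017564 in the untreated females was 3.18, 3.22, 3.94, 4.17 and 5.17 in the entopallium and 4.19 to 5.14 in HVC, whereas in the implanted females it was 4.48 to 5.52 and 2.18 to 4.63. The interaction was 2.16 (SE 0.52, limma adjusted p = 0.00496). It was also named for season, and both tests use the same untreated females. XM_002196113 had an interaction of 2.06 (SE 0.62, limma adjusted p = 0.0174), and its region difference was 2.04 in untreated females but -0.020 in implanted ones. Its call was lost in a single model over all canary groups (adjusted p = 0.0866).

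Of the 4 transcripts named for the region difference, 2 were called between untreated and implanted females. They had been chosen by the size of the difference in the untreated females, which favours a narrower one in the implanted females. ENSTGUT00000009621 was 7.38 ± 0.13 (SD, n = 6) in HVC of untreated females and 8.72 ± 0.26 (SD, n = 6) in implanted females. In the entopallium it was 11.19 ± 0.08 (SD, n = 5) and 10.89 ± 0.26 (SD, n = 6). The region difference was thus narrower after implantation, with an interaction of -1.64 (SE 0.16, limma adjusted p = 1.54e-06). The region difference of ENSTGUT00000008249 was also narrower. Its entopallium level was 7.05 ± 0.24 (SD, n = 5) in untreated and 8.43 ± 0.55 (SD, n = 6) in implanted females, whereas HVC was at 10.86 and 11.22. Its interaction was 1.02 (SE 0.26, limma adjusted p = 0.00635). ENSGALT00000014509 and XM_002195013 were not called, with adjusted p of 0.634 and 0.953.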

How the data were processed

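The authors scanned the arrays and deposited log2 transcript levels for 26061 transcripts and 155 arrays, already normalised. Per the labels, this was done in Affymetrix Expression Console. No source used here gives its version or settings. The probe-level test of the methods, in ChipInspector, needs scanned probes and was not run.

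The table was used with no filter or further normalisation. Regions were compared in limma 3.58.1 under R 4.3.3 (lmFit and eBayes) and p was adjusted over all transcripts by Benjamini-Hochberg. A call needed a log2 difference of 0.5 or more in size and an adjusted p below 0.05. Interactions were fitted over the 4 groups of arrays concerned. Tests of each region between groups were a later addition, made with the data in view, as were alternative values for transcripts named for an interaction. Array medians and low ends were compared by exact permutation, without pairing arrays of the same bird number. The calls were tested on simulated data. The simulated noise was independent between arrays and of equal spread in all groups, so an array set apart from its group was not covered. Titles give a bird number for each HVC and entopallium array, but none for the cerebellum arrays, and p-values measure the spread between birds. The descriptions list 6 HVC females, 1 more than the methods, and all were used. Whether these numbers are those of the rings of the birds is not settled. The replicates of a group were compared and no pair of arrays was identical.

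Identifiers matched 0 of 17915 genes of the canary reference table, and no file gives a name for them. Tests of gene lists and the check of the tissues against markers of their cell types were therefore left out, and the text names transcripts by identifier only. Named are the 2 called transcripts without overlap with the largest positive and the 2 with the largest negative difference, and likewise the 2 and 2 of each interaction. The comparison, its lists and its tests were chosen with earlier results of these data known.

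Alternatives were scaling to the same total intensity, quantile normalisation, leaving out the dimmest 25% of transcripts, either call criterion alone, the trend and robust options, array weights, blocks for the bird number or the replicate number, a single model over the canary groups, only the 5 bird numbers found in both regions, and omission of each array of the non-breeding females.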

Additional observations from a re-analysis of the deposited data

Results flagged for a closer look

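The region difference of the non-breeding non-singing females differed by a test of the interaction from that of breeding females for 711 transcripts, from that of males for 267 and from that of testosterone-implanted females for 1753. The transcripts named for season had interactions of 1.95 (XM_002199392), 1.82 (ENSTGUT00000017564), -1.83 (ENSTGUT00000015454), -1.60 (ENSTGUT00000009343) and -0.62 (ENSTGUT00000009621). Those named for sex had 1.53 (ENSTGUT00000011554), 1.40 (ENSTGUT00000008874), -2.12 (ENSTGUT00000016916), -1.90 (XM_002198361) and -0.70 (ENSGALT00000014509). Those named for testosterone had 2.16 (ENSTGUT00000017564), 2.06 (XM_002196113), -3.46 (XM_002194733), -3.37 (XM_002200173), 1.02 (ENSTGUT00000008249) and -1.64 (ENSTGUT00000009621).

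A single bird stood apart in 2 of the 38 sets of levels that were examined, each set holding the levels of a named transcript in one region and group. By its critical value the rule used sets about 1 in 20 apart by chance. The rate was not measured here, and the transcripts were selected, so it is only a guide. For ENSTGUT00000011554 in the entopallium, replicate 5 was at 8.31 and the next bird at 7.37, a gap of 0.751 of the whole range. Replicate 5 was also the array that PC2 set apart over all transcripts. For XM_002194733 in the entopallium, replicate 1 was at 2.30 and the next bird at 5.28, a gap of 0.757 of the range.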

How the results depend on the processing

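The direction and call of the 4 transcripts named for the region difference held in all 88 alternative values, with adjusted p up to 1.14e-06. The count of 4062 became 11700 with the adjusted p as the only criterion and lay within 1.5 times otherwise, between 3939 and 4243 when an array was left out. For season, 711 became 3441 with the adjusted p alone and 1068 with the size alone, and lay between 549 and 957 when an array was left out. For sex, 267 became 1419, 653 and, with array weights, 414, and when an array was left out lay between 193 and 413, the last without entopallium replicate 5. For testosterone, 1753 became 6728 with the adjusted p alone, lay between 1617 and 1914 when an array was left out, and between 1470 and 2097 in the remaining alternatives. When an array was left out, the difference of the array medians lay between 0.0144 and 0.0294, and that of the low ends between -0.0949 and -0.0627. With arrays brought to equal total intensity they were 0.0132 and -0.0919. Only arrays of the non-breeding females were left out. The interactions of ENSTGUT00000009621 with season and of ENSGALT00000014509 with sex were not called in a single model over the canary groups (adjusted p = 0.0544 and 0.0585). The uncalled testosterone interaction of XM_002195013 changed sign, from 0.029 to -0.031 with quantile normalisation and -0.15 with the bird number as a block, and lay between -0.063 and 0.15 when an array was left out. With that block, XM_002196113 (testosterone) and ENSTGUT00000016916 (sex) were not called (adjusted p = 0.0589 and 0.1), nor was XM_002198361 (sex) with the robust option (adjusted p = 0.0566).

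With the bird number as a replicate block, 4150 transcripts were called for the region difference, 801 for season, 216 for sex and 2048 for testosterone. With it as a random block the counts were 4066, 770, 286 and 1843, and with the replicate number as a block 4053 for the region difference. Deviations of arrays of the same number from their group means correlated between -0.0883 and 0.0866, and 1 of 5 entopallium arrays correlated best with the HVC array of its own number. Depth has no counterpart on arrays, and levels near the low end limit the dim transcripts. The causes of these changes were not tested.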
